A study of Mus musculus with 24 samples.

Results

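The transcripts of 6 complement genes were followed in primary brite adipocytes of the mouse: Cfd, Cfb and C3 of the alternative pathway, C1ra and C4b of the classical pathway, and the inhibitor Serping1. They were taken by symbol from a deposited table of 168326 transcript entries that carries 52089 gene symbols, each by its RefSeq messenger RNA entry with the highest mean over the 24 libraries. All 6 members had such an entry and passed the filter on low values in each of the 4 comparisons made with all samples.

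The cells were preadipocytes from the stromal vascular fraction of inguinal white fat of 129SvEv mice. By the paper's methods, differentiation was induced over 2 days with rosiglitazone, dexamethasone, indomethacin, isobutylmethylxanthine, insulin and triiodothyronine. It was then continued for 1 day with rosiglitazone, insulin and triiodothyronine. Rosiglitazone is an activator of PPARγ that turns white fat cells towards the heat-producing brite type. All groups share this treatment. Cells were then reverse transfected with LNA Gapmer oligonucleotides at 50 nM, which are short antisense molecules with locked bases at their ends that let RNase H cut the RNA they pair with. The gapmer was either directed at Ctcflos, a long noncoding RNA (the KD groups), or had no target (the NC groups). RNA was taken after 24 h or after 72 h, with 6 libraries for each treatment and time. The labels do not say which of the study's Ctcflos gapmers was used, do not tie libraries to animals or cultures, and include no untransfected group. The study calls its replicates biological, and p-values measure the spread between these samples. The study asked what loss of Ctcflos does to differentiating brite cells, and the comparisons are KD against NC at each time and NC over time.

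Complement is a cascade of plasma proteins that marks microbes and damaged cells, draws in leukocytes and forms pores in membranes. The classical pathway starts when the C1 complex, whose proteases are C1r and C1s, binds antibody and cleaves C4 and C2, and all pathways meet at the cleavage of C3. The alternative pathway amplifies that step: factor B (Cfb) binds activated C3, and factor D (Cfd, also called adipsin) cleaves it to complete the C3 convertase. Fat cells are the main source of factor D, and adipose tissue also makes C3 and factor B. The C1 inhibitor, encoded by Serping1, is a serpin that blocks C1r and C1s and also plasma kallikrein.

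On GRCm38 (GENCODE M21), Cfd lies on chromosome 10 at 79890853-79892655 on the plus strand, with up to 5 exons. C4b (34728380-34743882), Cfb (34856374-34862518) and C3 (57203970-57228136) all lie on the minus strand of chromosome 17, with up to 41, 18 and 41 exons. C4b and Cfb sit 112.5 kb apart in the class III region of the major histocompatibility complex. C1ra is on chromosome 6 at 124512405-124523443, 6.9 kb from C1s1, and Serping1 on chromosome 2 at 84765387-84775444. All 6 entries are protein-coding messenger RNAs, and the build used to make the deposited table was not given in the sources used here. Reads may be shared with relatives: 38.3% of the 50-base windows in the last 1000 bases of C4b also occur in C4a, and 30.8% of those of C1ra occur in C1rb. C4a reached a mean of at most 0.207 RPKM in any entry and C1rb was listed at 0. The C4b and C1ra values are therefore uncertain by what the counting could have split. Cfb overlaps the readthrough gene Gm20547 on the same strand, so its reads cannot be told apart from those of that gene.

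The promoters of Cfd and C3 are shown because these genes had the lowest KD levels relative to NC at 72 h among the members, and because the sequences can be searched for factors known to act on acute-phase and fat cell genes. Each line gives the 250 bases before the RefSeq start site, 5′ to 3′ on the gene's strand of GRCm38.p6, with motif matches in capitals. Cfd is chr10:79890603-79890852 (plus strand) and C3 is chr17:57228137-57228386 (minus strand).
Cfd: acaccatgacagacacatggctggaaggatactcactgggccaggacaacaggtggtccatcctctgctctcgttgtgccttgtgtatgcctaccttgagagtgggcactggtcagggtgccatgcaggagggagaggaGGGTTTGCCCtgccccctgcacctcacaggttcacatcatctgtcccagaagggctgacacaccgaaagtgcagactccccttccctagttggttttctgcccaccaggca
C3: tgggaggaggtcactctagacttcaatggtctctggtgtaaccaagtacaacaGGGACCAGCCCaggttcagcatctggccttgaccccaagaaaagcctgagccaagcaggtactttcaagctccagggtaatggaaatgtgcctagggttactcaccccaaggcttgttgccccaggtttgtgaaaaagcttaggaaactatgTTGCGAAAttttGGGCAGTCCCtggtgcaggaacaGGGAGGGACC
The motifs searched on both strands were TTCNNNGAA (STAT), TTGCNNAA (C/EBP) and the general NF-kappaB motif. In Cfd the NF-kappaB letters start at 1 position, 111 bases before the start site. In C3 they start at 4 positions, from 197 to 10 bases before it, and the C/EBP letters start at 1 position, 45 bases before it. Among all 32851 promoters of the RefSeq table, 45.8% hold the NF-kappaB letters, 9.6% the C/EBP letters and 7.0% the STAT letters in the same window. The C1ra promoter held no match to any of these motifs. C4b, Cfb and Serping1 had no entry in the promoter table. A match is a description of letters and not a site.

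Values are RPKM, reads scaled by transcript length and by the mapped reads of the library, brought to a common scale between libraries. Libraries held 1391832 to 5926375 mapped reads, with a median of 4009998, as recovered from the RPKM. The highest total is that of NC 72 h replicate 6, where 14.9% of read numbers from 1 to 20 were odd. In the other libraries 54.0% to 55.7% were odd. The recovered total and read numbers of that replicate may thus be too high, which was not tested. The mean number of reads per library behind each member was 951.9 for Serping1, 265.0 for Cfb, 172.1 for Cfd, 111.6 for C4b, 73.0 for C3 and 24.4 for C1ra. Reads came from the 3′ ends of transcripts, so division by length lowers the values of the long C3 and C4b transcripts relative to the short Cfd. NC 72 h replicates 2 and 3 differed by less than the sampling noise and were counted as 1 sample, which gives n = 5 in NC 72 h and 23 samples in all. Ctcflos was low in every group. Its entry ENSMUST00000144256 stood at 0.12 ± 0.20 RPKM (SD, n = 6) in KD 72 h and 1.38 ± 0.93 (n = 5) in NC 72 h (two-sided exact permutation test, p = 0.013, adjusted p = 0.026 over 4 comparisons). At 24 h the same entry stood at 0.24 ± 0.37 and 0.40 ± 0.23 (exact permutation p = 0.37, adjusted p = 0.37). The RefSeq entry stood at 18.8% of NC at 72 h (exact permutation p = 0.00433, adjusted p = 0.0173) and 25.5% at 24 h (exact permutation p = 0.0455, adjusted p = 0.0607).

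The libraries did not form uniform groups. Deviations from the group means over 6211 genes, with all complement genes left out, separated a smaller cluster of 8 libraries, 2 in each group, from a larger cluster of 16. The smaller cluster held KD 24 h replicates 3 and 4, NC 24 h replicates 5 and 6, KD 72 h replicates 5 and 6 and NC 72 h replicates 4 and 5. The split used the first 2 principal components of the deviations. On the first, KD 72 h did not separate, with 2.9 and -2.5 in the smaller and -4.7 to 2.4 in the larger cluster. In NC 72 h these were 10.1 and 10.6 against -7.6 to -5.7. KD against NC within a cluster at 72 h may therefore compare unlike samples, which was not tested. No label names these clusters, so they are called samples apart and not a batch. Members had lower means in the smaller cluster: the larger-cluster mean lay 0.06 (C4b in KD 72 h) to 3.05 (C3 in NC 72 h) log2 units higher. Over 12737 genes the median of this gap was -0.05 (KD 24 h) to 0 (NC 72 h). Its 95th percentile was 0.77 (NC 24 h) to 1.07 (KD 24 h), and 2.78% (NC 24 h) to 6.08% (KD 24 h) of genes had a gap above 1. Some members lay below that percentile, for example Serping1 in KD 24 h (0.33) and Cfd in KD 72 h (0.58). The clusters were cut from values of these same libraries, so these gaps are a description. The change of each member at 72 h is therefore given below also within each cluster. Other results on members, such as the 24 h changes of C3, C4b, Cfb and C1ra, and those on other genes are over all samples unless a cluster is named. A cluster holds samples grouped for being alike, so tests within it or with it as a covariate see less spread. Their adjusted p-values may thus be too small, and calls from them are descriptions.

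Adipocyte markers were high throughout, with a summed level of 26200 to 52900 scaled RPKM over 7 genes. Fabp4 made up most of this sum, with a mean of 37025 scaled RPKM against at most 2033 for any other of the 7. The sum was lower in KD without overlap. It was 37200 to 49900 against 50500 to 52900 in NC at 24 h, and 26200 to 35800 against 36600 to 48300 at 72 h. Such a gap held for 6.75% and 7.63% of entries in that direction. Fabp4 itself was not called at 24 h (log2 change of -0.19, limma adjusted p = 0.206), and Cidec was not lower at 72 h (0.10). Of the 7 adipocyte markers, 3 were called lower in KD at each time, against 12.1% (24 h) and 12% (72 h) of all entries. At 72 h these were Adipoq (-0.96), Fabp4 (-0.58) and Lpl (-0.48). Of the 5 brite markers Ucp1, Cidea, Cox7a1, Ppargc1a and Elovl3, 4 were called lower at 24 h and 5 at 72 h. Of 5 preadipocyte markers tested at 72 h, Cd34 (2.01) and Pdgfrb (0.59) were called higher, against 10.2% of all entries. Of the markers of other cells, the lymphocyte sum was at most 0.29 and the endothelial sum at most 3.03. The macrophage sum over 9 genes ran from 2.85 to 43.2. It was 28.2 to 31.1, 35.6 to 40.5 and 41.5 to 43.2 in the smaller-cluster samples of KD 24 h, NC 24 h and NC 72 h, against 2.85 to 10.6, 7.21 to 15.7 and 10 to 19.8 in the larger cluster. In KD 72 h it was 7.48 to 12.4 and 10.9 to 14.1. The sum mixes opposite changes. Of 3 macrophage markers tested in KD against NC at each time, Csf1r was called higher at 24 h (1.21) and 72 h (1.23). Lyz2 was called lower at 72 h (-3.68). Preadipocyte markers summed to less in the smaller cluster of every group, for example 392 to 592 against 772 to 1030 in NC 72 h. Most of that sum was Ly6a, with a mean of 673 scaled RPKM against at most 30.8 for any other marker of the list. The sum therefore says little of the other preadipocyte markers. The part of other cells in the values below was not tested, and in bulk samples fewer cells of a type and less RNA per cell cannot be told apart.

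By length-divided level, Serping1 stood highest among the members in all 4 groups and Cfd second in 3 of them. By reads alone Serping1 was also first in all 4 groups, but Cfb came before Cfd in all but NC 24 h (929 against 1142 reads over the group), so the order of these 2 depends on the division by length. In NC 24 h the group means, in scaled RPKM, were 74.3 for Serping1, 51.3 for Cfd, 14.2 for Cfb, 3.89 for C4b, 3.00 for C3 and 1.32 for C1ra. Cfd and Cfb did not overlap in that order, nor did Cfb and C4b, whereas the other neighbours did. In KD 72 h the order changed, with Cfb (27.9) beside Cfd (25.0) and C1ra (2.69) beside C3 (1.81), and each of these pairs overlapped. In NC 72 h the ranges of every pair of neighbours overlapped between samples. Within each of these samples, though, Serping1 lay above Cfd, Cfd above Cfb, Cfb above C4b, and C3 above C1ra. Only C4b and C3 changed places from sample to sample.

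**Figure D1:**
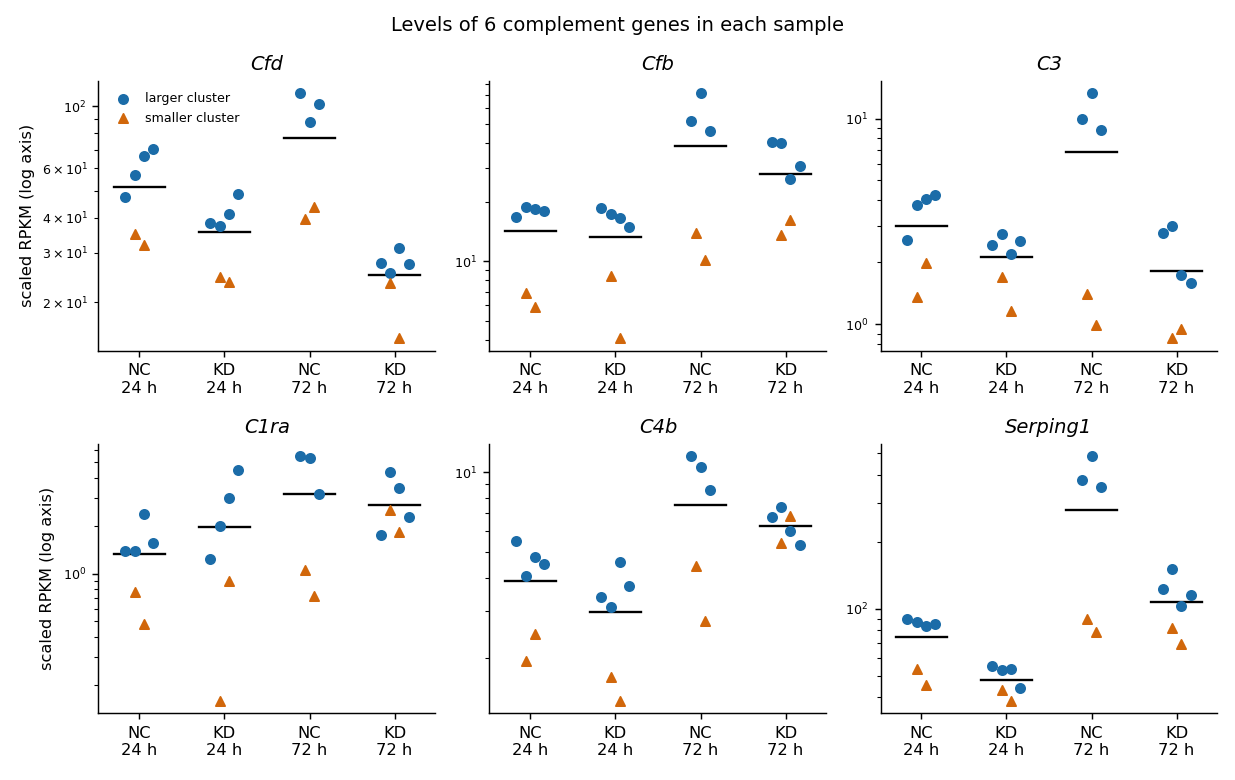
Level of each complement gene in scaled RPKM (log axis) by group, 1 point per sample, with circles for the larger and triangles for the smaller cluster and a bar at the group mean. In NC 72 h Serping1 lies between 351.6 and 487 in the larger and between 78.4 and 90.1 in the smaller cluster.

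Over 2 days in control cells, the inhibitor rose and the other members had higher means without passing the test. Of the 6 members, 1 was called higher at 72 h than at 24 h (limma, adjusted p under 0.05), against 9.1% of all 52836 entries tested in either direction and 4.4% called higher. The median log2 change of the members was 0.90 and that of all entries 0. Next after Serping1 came Cfb, with a log2 change of 1.23 ± 0.49 (SE), C1ra with 0.95 ± 0.52 and C4b with 0.84 ± 0.37 (adjusted p of 0.149, 0.3 and 0.189). The values were 0.66 ± 0.60 for C3 and 0.52 ± 0.29 for Cfd (adjusted p of 0.578 and 0.316). Without NC 72 h replicate 5, C4b (1.15, adjusted p = 0.046) and Cfb (1.62, adjusted p = 0.0418) were called as well. Within the larger cluster all 6 members were called higher, from 0.74 ± 0.14 for Cfd to 2.21 ± 0.10 for Serping1, where 10.2% of entries were called. With the cluster as a covariate 5 members were called, all but C3, against 13.6% of entries. Within the smaller cluster Serping1 alone was called, at 0.77 ± 0.14 (adjusted p = 0.0233), and C3 stood at -0.44 ± 0.42. C1ra did not pass the filter there, and 3.21% of entries were called.

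At 24 h after transfection, Serping1 was the only member called, and it was lower in KD. That is 1 of 6 members, against 22.6% of 52006 entries called in either direction and 12.1% called lower, so the members' share lay near that of entries in general. Their median log2 change was -0.41, and that of all entries was -0.02. At 72 h, Cfd was the only member called, again lower, against 22.2% of 54447 entries in either direction and 12% lower. The median log2 change was then -0.64 among the members and 0.01 among all entries. Both counts differed between the clusters. Within the larger cluster 2 members were called at 24 h (Cfd and Serping1, 25.1% of entries called) and 5 at 72 h (all but C1ra, 24.4% of entries called). Within the smaller cluster 0 of the 5 members tested were called by limma at 24 h (1 at an unadjusted p under 0.05, 2.86% of entries called), and at 72 h Cfd alone was called (10.3% of entries called). With the cluster as a covariate, Cfd and Serping1 were called at 24 h (27.4% of entries) and Cfd, Serping1 and C3 at 72 h (26.4%). The difference in response between the clusters was not tested.

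**Figure D2:**
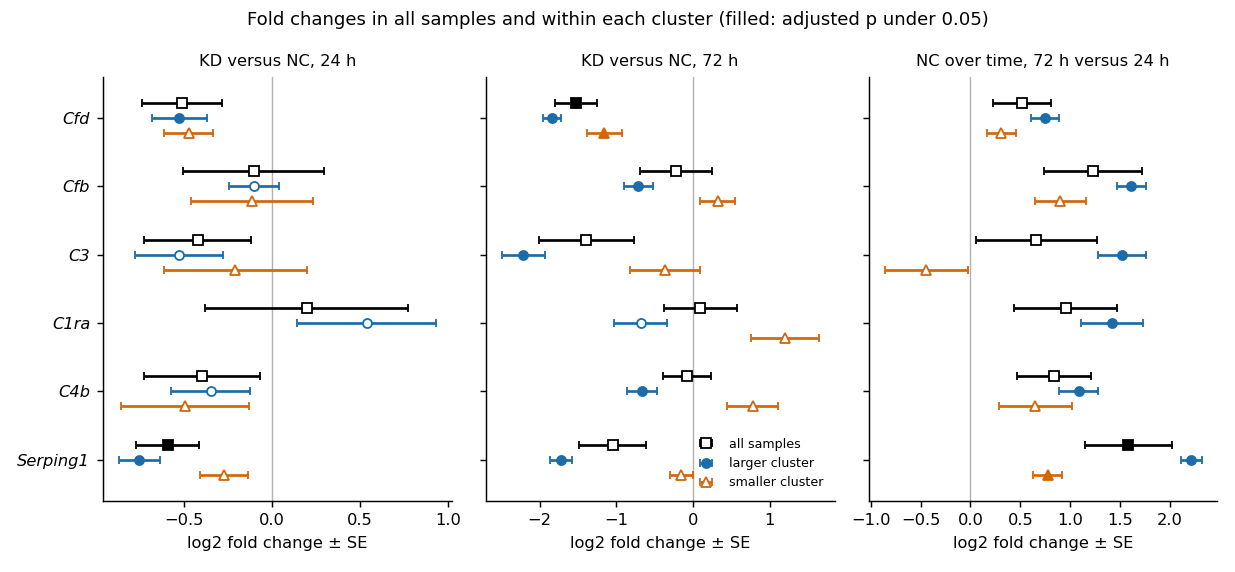
Log2 fold change with its SE for each complement gene, in all samples (squares), the larger cluster (circles) and the smaller cluster (triangles), with filled symbols where the adjusted p is under 0.05. C1ra did not pass the filter in the smaller cluster at 24 h and over time. At 72 h Cfd is filled in all 3 sets, and the smaller cluster lies above 0 for Cfb, C1ra and C4b.

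Factor D is the protease that limits the rate of the alternative pathway. In NC 72 h, Cfd stood at 111, 87.7, 39.5, 43.8 and 102 scaled RPKM, in the order of replicates 1, 2 and 3 merged, 4, 5 and 6. In KD 72 h it ran from 14.8 through a median of 26.5 to 31.2. Every KD sample lay below every NC sample, so the groups did not overlap, which held for 7.63% of entries in that direction, and the pair of low NC values belonged to the smaller cluster. The mean was 25.0 ± 5.6 (SD, n = 6) in KD and 76.8 ± 33.2 (n = 5) in NC, or 32.5% of NC. The log2 change was -1.53 ± 0.28 (SE, adjusted p = 0.00144), with -1.84 ± 0.12 in the larger cluster and -1.16 ± 0.23 in the smaller (adjusted p of 2.23e-06 and 0.0125). Leaving out any single sample kept it between -1.73 and -1.36. The adipocyte marker sum, most of it Fabp4, was lower in the same KD samples, and its part in the Cfd result was not tested.

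At 24 h Cfd ran from 23.7 through 37.9 to 48.6 in KD and from 32.0 through 52.1 to 70.3 in NC, and the groups overlapped. The change was -0.51 ± 0.23 and did not pass (adjusted p = 0.116), while within the larger cluster it was -0.53 ± 0.16 (adjusted p = 0.0318) and with the cluster as a covariate -0.51 ± 0.12 (adjusted p = 0.0059). Over time the NC mean went from 51.3 to 76.8 and the KD mean from 35.6 to 25.0. The change of the knockdown effect between the times was -1.01 ± 0.38 for Cfd and was not called (adjusted p = 0.283). It was called within the larger cluster (-1.31 ± 0.20, adjusted p = 0.00359) and with the cluster as a covariate (-1.07 ± 0.19, adjusted p = 0.00699).

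C3 is the protein on which all pathways meet. It stood at 9.91, 13.3, 1.40, 1.00 and 8.76 scaled RPKM in the NC 72 h samples in the order given for Cfd, and in KD 72 h it ran from 0.85 through 1.66 to 3.00. The NC samples of the larger cluster lay above all KD samples, and those of the smaller cluster within the KD range. Within the larger cluster, KD lay wholly below NC at 72 h for 17.9% of all entries, so such a gap was common. The change was -1.39 ± 0.62 over all samples, which did not pass (adjusted p = 0.124). Within the larger cluster C3 fell to 21.3% of NC (-2.21 ± 0.28, adjusted p = 0.000273), and within the smaller it stood at 74.9% (-0.36 ± 0.46, adjusted p = 0.675). At 24 h C3 ran from 1.16 through 2.30 to 2.74 in KD and from 1.35 through 3.17 to 4.26 in NC, at -0.42 ± 0.30 (adjusted p = 0.326). The gap between the clusters was widest for C3 in NC 72 h, where the larger cluster lay 3.05 higher on the log2 scale. Over 12737 genes the median of that gap was 0 and its 95th percentile 0.93.

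Factor B carries the catalytic site of the alternative C3 convertase. Cfb stood at 52.0, 71.6, 14.0, 10.2 and 46.0 scaled RPKM in NC 72 h and ran from 13.7 through 28.4 to 40.6 in KD 72 h. All KD samples lay below the high NC samples, and all but replicate 5 lay above the pair of low ones. A gap of the first kind, within the larger cluster, held for 17.9% of entries. The change was -0.22 ± 0.47 over all samples (adjusted p = 0.776), -0.72 ± 0.19 in the larger cluster (adjusted p = 0.0173) and 0.32 ± 0.23 in the smaller (adjusted p = 0.436). At 24 h the values nearly coincided, with means of 13.4 ± 5.8 in KD and 14.2 ± 6.1 in NC (n = 6 each) and a change of -0.11 ± 0.40 (adjusted p = 0.874). In both treatments the mean was higher at 72 h, at 27.9 ± 11.4 in KD and 38.8 ± 26.1 in NC.

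**Figure D3:**
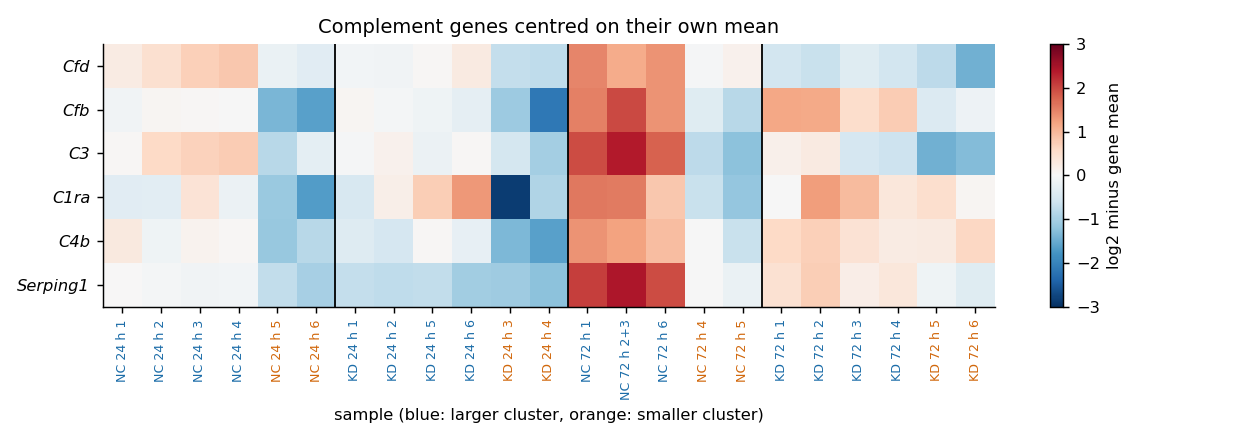
Log2 level of each complement gene in each of the 23 samples minus the gene's own mean, ordered by group and cluster, with sample names in blue for the larger and orange for the smaller cluster. The 3 larger-cluster samples of NC 72 h are the highest column block for every gene, and NC 72 h replicates 4 and 5 lie near or below the gene means.

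The classical pathway genes gave no call in all samples. C4b, the source of the C4 fragment that starts the classical C3 convertase, stood at 11.5, 10.4, 4.44, 2.76 and 8.54 scaled RPKM in NC 72 h and ran from 5.32 through 6.41 to 7.37 in KD 72 h. All KD values lay between the high and low NC samples. As for C3 and Cfb, KD wholly below NC within the larger cluster held for 17.9% of entries. The change was -0.08 ± 0.31 (adjusted p = 0.88), with -0.66 ± 0.19 in the larger cluster (adjusted p = 0.028) and 0.78 ± 0.33 in the smaller (adjusted p = 0.182). C4b in KD 72 h was also the only case in which the clusters differed by as little as 0.06 on the log2 scale. At 24 h C4b ran from 1.38 to 4.59 in KD and from 1.95 to 5.51 in NC, at -0.40 ± 0.33 (adjusted p = 0.395).

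C1ra, a protease of the C1 complex, had the fewest reads, between 2 and 52 per library. It stood at 5.47, 5.35, 1.06, 0.72 and 3.15 scaled RPKM in NC 72 h and ran from 1.74 through 2.38 to 4.36 in KD 72 h, and the groups overlapped. The change was 0.09 ± 0.48 at 72 h (adjusted p = 0.912) and 0.20 ± 0.58 at 24 h (adjusted p = 0.835). Among larger-cluster samples at 72 h C1ra stood at -0.68 ± 0.35 and among smaller-cluster samples at 1.20 ± 0.44, and neither passed (adjusted p of 0.177 and 0.125). In the smaller cluster the KD mean of 2.17 ± 0.49 lay above the NC mean of 0.89 ± 0.24 (n = 2 each).

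Serping1, the inhibitor of the C1 proteases, was called in 2 of the comparisons. At 24 h it ran from 38.4 through 48.6 to 55.3 scaled RPKM in KD and from 45.1 through 84.9 to 90.3 in NC. The NC samples of the larger cluster all lay above the KD range and those of the smaller cluster within it. Within the larger cluster, KD lay wholly below NC at 24 h for 16.9% of all entries. KD stood at 64.6% of NC, at -0.59 ± 0.18 (adjusted p = 0.0288). In the larger cluster the change was -0.76 ± 0.12 (adjusted p = 0.002), and in the smaller it was -0.27 ± 0.14 and did not pass (adjusted p = 0.294). The call at 24 h was lost without any of NC 24 h replicates 1 to 4, where the adjusted p rose to as much as 0.0673, and with no filter or on the deposited scale. It was also lost with all groups in 1 fit, where the change was -0.59 ± 0.34 (adjusted p = 0.208).

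At 72 h Serping1 stood at 379, 487, 90.1, 78.4 and 351.6 scaled RPKM in NC and ran from 69.5 through 109 to 151 in KD. As for C3, the low NC samples lay within the KD range. The change was -1.05 ± 0.43 over all samples (adjusted p = 0.0982). Within the larger cluster it was -1.72 ± 0.14 (adjusted p = 1.31e-05) and within the smaller -0.15 ± 0.15 (adjusted p = 0.578). Leaving out NC 72 h replicate 4 or 5 brought Serping1 to an adjusted p of 0.0336 or 0.0215, and C3 to 0.0552 or 0.0295. In NC it was 3.73 times as high at 72 h as at 24 h by mean, at 1.58 ± 0.43 on the log2 scale (adjusted p = 0.0339). That factor was 4.68 in the larger cluster and 1.71 in the smaller, and both were called (adjusted p of 7.43e-07 and 0.0233). Over all samples the call over time was lost without any of NC 24 h replicates 2 to 6 or NC 72 h replicates 1, 2 and 3 merged, or 6, with an adjusted p of at most 0.0914 and a change of 1.29 to 1.64, and with no filter (adjusted p = 0.0766). The KD mean went from 47.9 to 107 scaled RPKM over the same time.

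Across the times, 0 of the 6 members had a knockdown effect that differed by limma's interaction term (1 at an unadjusted p under 0.05), against 0.2% of 59413 entries called. Within the larger cluster C3 (-1.68 ± 0.38, adjusted p = 0.0369), Cfd and Serping1 (-0.97 ± 0.19, adjusted p = 0.0175) were called, where 1.43% of entries were. With the cluster as a covariate Cfd alone was called, against 0.68% of entries. On the deposited scale, without the common scaling, the median of all entries at 72 h moved from 0.01 to 0.25 and the share of calls that were higher in KD from 46.1% to 80.9%. Cfd was lower at 72 h on that scale too (-1.27 ± 0.25, adjusted p = 0.00208), whereas C4b (0.17 ± 0.31) and Cfb (0.03 ± 0.45) changed sign. On the deposited scale within the larger cluster, Cfd, C3 and Serping1 were still called at 72 h, and C4b (-0.45 ± 0.20, adjusted p = 0.119) and Cfb (-0.50 ± 0.20, adjusted p = 0.0755) were not.

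Most of the rest of the complement system had too few reads to be tested in these cells. Of 52 further complement genes, 10 were listed at 0 in every library, and 8 entered the test at 24 h, 9 at 72 h and 8 in NC over time. None of the 7 terminal pathway genes and not properdin (Cfp) passed the filter, and the C1q chains C1qa, C1qb and C1qc had means of 1.4 to 4.0 reads per library. KD was higher in 2 and lower in 1 of these genes at 24 h, and the same 3 genes were called the same way at 72 h, which is 3 of 8 and 3 of 9 against 22.6% and 22.2% of all entries called. C1rl, a protease related to C1r, rose by 0.84 ± 0.24 at 24 h and 1.16 ± 0.29 at 72 h (adjusted p of 0.0196 and 0.0116). C1qbp, a mitochondrial protein that also binds C1q, rose by 0.56 at 24 h and 0.61 at 72 h. Colec12, a scavenger receptor of the collectin family, changed by -1.29 ± 0.42 and -1.67 ± 0.20 (adjusted p of 0.0408 and 9.06e-05). In NC over time Cd59a, which blocks the membrane pore, was higher at 72 h (0.53 ± 0.16, adjusted p = 0.0487) and C1qbp was lower (-0.58).

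The closest partners of the members in the cascade did not pass. C1s1, the partner protease of C1r, stood at -0.36 ± 0.27 at 24 h and -0.79 ± 0.42 at 72 h (adjusted p of 0.346 and 0.202). At 72 h C1s1 ran from 4.90 to 8.43 scaled RPKM in KD and from 13.1 to 18.9 in NC in the larger cluster, and from 2.98 to 3.71 and from 3.59 to 3.66 in the smaller. C2, which lies next to Cfb and pairs with C4, stood at 0.48 ± 0.45 and 0.54 ± 0.33 (adjusted p of 0.458 and 0.263). By the spread around their own means, the genes closest to Cfd over 23 samples among 12737 genes were Ffar4, Scd1 and Acly (root mean square distance of 0.359, 0.364 and 0.365 on the log2 scale). Closest to Serping1 were Mt2 (0.301), Gpx3 (0.372) and H2-Q10 (0.386), the last a member of a family with near-identical copies. Cxcl12, C1s1 (listed as C1s) and Mmp3 came closest to C3 (0.465 to 0.524), and Acaa1b, P4ha2 and Pygl to C4b (0.274 to 0.342). C4b itself was the gene closest to Cfb (0.435), ahead of Unc13a and Ccl5, and C2, Egln3 and Ero1l were closest to C1ra (0.557 to 0.615).

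Acute-phase proteins that fat cells secrete were called in the same direction as the called members. Of 8 such genes, 4 were tested at 24 h, of which 3 were lower in KD, against 12.1% of all entries called lower: Hp (haptoglobin) at -0.86 ± 0.16, Serpina3n (a protease inhibitor) at -0.82 ± 0.17 and Cp (ceruloplasmin, a copper carrier) at -0.81 ± 0.22, with adjusted p of 0.00242, 0.00506 and 0.0172. Saa3, an acute-phase apolipoprotein, stood at 0.08 ± 0.28 then. At 72 h, 1 of 6 was called, against 12% of all entries called lower. It was Cp at -1.35 ± 0.31 (adjusted p = 0.00713), while Orm1 (an orosomucoid) stood at 0.37 ± 0.21 (adjusted p = 0.228) and Hp stood at -2.18 ± 0.75 (adjusted p = 0.0514). In NC over time, 1 of 5 was called, against 4.4% of all entries called higher, Hp at 2.30 ± 0.64 (adjusted p = 0.0368). Hp stood at 903, 1338, 87.9, 92.4 and 1042.5 scaled RPKM in the NC 72 h samples, high and low in the same samples as Serping1 and C3. Saa3 stood at 2706 to 6396 in the larger cluster of NC 72 h and at 43.5 to 44.6 in the smaller.

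**Figure D4:**
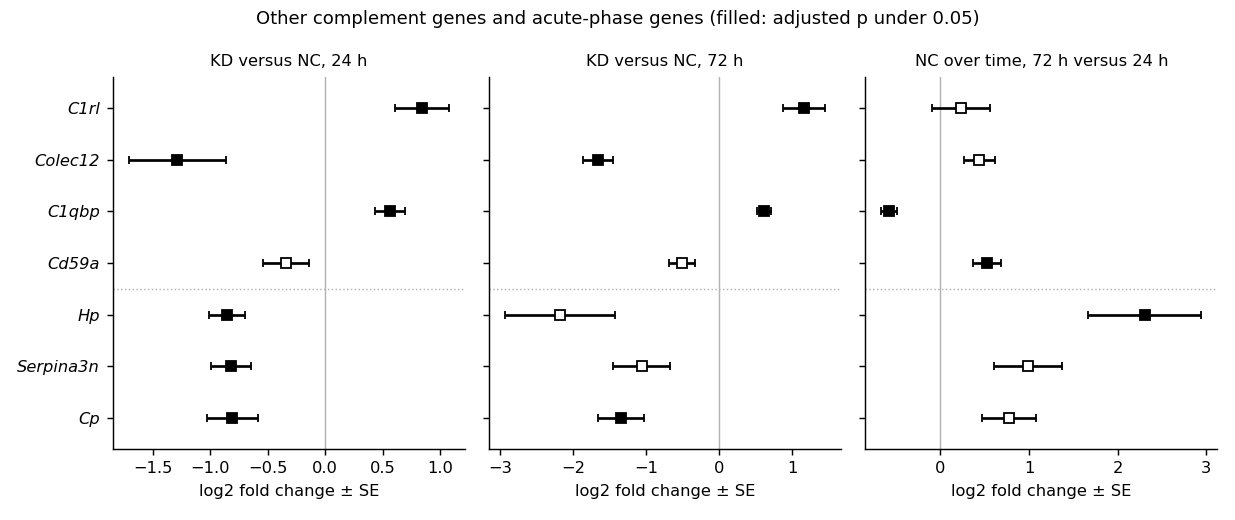
Log2 fold change with its SE of the other complement genes (above the dotted line) and acute-phase genes (below it) that were called in at least 1 comparison, with filled symbols where the adjusted p is under 0.05. C1rl and C1qbp lie above 0 and the other genes below 0 in KD against NC at both times.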

How the data were processed

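Bulk RNA barcoding and sequencing of polyadenylated 3′ ends was done by the authors, who mapped reads with the Genomatix suite and tested transcripts with DESeq2. Version, build and strand handling for these libraries were not given in the sources used here. The deposited table holds RPKM with decimal commas for 24 libraries (columns left unused: 0), and groups came from the sample titles. RPKM rise in steps of 1 read, from which mapped totals and reads were recovered (93.6% to 94.1% of low values per library whole). RPKM were scaled by a trimmed mean of log ratios (30% of ratios and 5% of levels). Entries needed the equivalent of 10 reads in a number of samples equal to the smaller group's n, and 15 in total. limma 3.58.1 with a trend (R 4.3.3) was fitted to log2(scaled RPKM + 0.1) for the groups compared, which understates changes of low genes, with Benjamini-Hochberg adjustment over all entries and calls under 0.05. The script was tested on simulated data. Ctcflos was compared by exact permutation of RPKM (SciPy 1.17.1). Clusters of libraries were found from genes with at least 50 reads on average.

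Named were the 6 members, other pathway and acute-phase genes called in a comparison, and the 3 genes of nearest pattern. The members and lists were chosen with earlier results of these data known. Alternatives were another pseudocount, no filter, the deposited scale, a replicate block, 1 entry per symbol, voom on recovered reads, all groups in 1 fit, merged libraries apart, each cluster, and each sample left out. The cluster as a covariate and the larger cluster on the deposited scale were chosen after seeing the data. Protein sequences were not used here. A planned gene of the pathway is not reported here.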

Additional observations from a re-analysis of the deposited data

Results flagged for a closer look

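Among 52 combinations of a named gene and a group tested for a sample far from the others, 2 stood out, where chance flags about 1 group in 20, and neither was a member. C1qbp in NC 72 h replicate 6 stood at 56.5 scaled RPKM, above 47.6 to 49.7 in the other samples of the group. Cd59a in KD 72 h replicate 5 stood at 11.4, above 6.37 to 8.22 in the others. In the members the low samples of a group came as a pair, which this test of a single sample does not see. NC 72 h replicate 6 also differed in its read numbers, of which 14.9% from 1 to 20 were odd, but its member values lay beside those of replicates 1 to 3.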

How the results depend on the processing

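Of 640 log2 changes of members recomputed under other settings, 540 kept their direction and their side of the threshold, 17 lost a call, 37 gained one and 46 changed sign, none of the last in a comparison in which that member was called over all samples. Cfd at 72 h was called under every setting run. Member counts follow for KD against NC at 24 h (1 over all samples), at 72 h (1), NC over time (1) and the change of the knockdown effect (0). With no filter they were 0 at 24 h and 0 over time. On the deposited scale the count was 0 at 24 h. With all groups in 1 fit it was 0 at 24 h and 2 at 72 h, and with NC 72 h replicates 2 and 3 separate it was 2 at 72 h. In the larger cluster the counts were 2, 5, 6 and 3, in the smaller 0 at 24 h, with the cluster as a covariate 2, 3, 5 and 1, and in the larger cluster on the deposited scale 3 at 72 h, 6 over time and 2 for the change of effect. Without single samples the counts ran from 0 to 1 at 24 h, 1 to 3 at 72 h and 0 to 3 over time. The cluster as a covariate and the larger cluster on the deposited scale were chosen after seeing the data, and C1ra gave no value in the smaller cluster at 24 h and over time. The causes were not tested.

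Counts of entries were 11765, 12099, 4806 and 119 over all samples. With 1 entry per symbol, which tests fewer entries, they were 2613, 2792, 1064 and 47. In the smaller cluster they were 1514, 5762, 1731 and 1808. The change of the knockdown effect gave 244 with a pseudocount of 1, 774 on the deposited scale, 183 with the merged libraries separate, 867 in the larger cluster, 1244 there on the deposited scale, 404 with the cluster as a covariate, and 53 to 175 without single samples.

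The following uncalled members changed sign. At 24 h Cfb stood at 0.008 in the larger cluster on the deposited scale and ran from -0.33 to 0.199 without single samples, and C1ra from -0.132 to 0.698. At 72 h C1ra stood at -0.008 with a pseudocount of 1, -0.098 with the merged libraries separate, -0.682 in the larger cluster and -0.471 there on the deposited scale, and ran from -0.304 to 0.385 without single samples. C4b stood at 0.165 and Cfb at 0.028 on the deposited scale, and at 0.775 and 0.32 in the smaller cluster, and ran from -0.392 to 0.113 (0.079 without NC 72 h replicates 2 and 3) and from -0.611 to 0.088 without single samples. Over time C3 stood at -0.443 in the smaller cluster. For the change of effect, Cfb stood at 0.064 and C1ra at 0.069 on the deposited scale, and C1ra at 0.01 with voom. C4b stood at -0.313 in the larger cluster and -0.206 there on the deposited scale. In the smaller cluster Cfb stood at 0.436, C1ra at 1.682 and Serping1 at 0.119. Without single samples Cfb ran from -0.505 to 0.195 (0.106 without NC 24 h replicate 6) and C1ra from -0.605 to 0.225 (0.181 without NC 72 h replicates 2 and 3).

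Samples with the same replicate number did not deviate together on average (mean correlation of -0.1, 0.04 and 0.01 over 6, 5 and 5 pairs). Single pairs ran from -0.35 to 0.3. So few pairs cannot decide whether the numbers mark shared cultures or animals. A fit with the replicate number as a block changed no member's call (Serping1 at 24 h -0.594, Cfd at 72 h -1.597, Serping1 over time 1.627, with adjusted p of 0.0431, 0.00828 and 0.0357 from limma) and gave 8705, 8171, 2870 and 28 entries. Depth limited C1ra most, with 2 reads in its lowest library, and intervals of counting error say nothing of culture differences.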
